A study of Homo sapiens with 5 samples.

Results

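The genes described here are 10 members of the DNA damage checkpoint: ATR, MDC1, DCLRE1A, DCLRE1B, CHEK1, CHEK2, ATRIP, TOPBP1, CLSPN and RAD17. They were taken as a list of symbols, all 10 had a named probe set, and they stand among 14812 genes measured. The cells were LNCaP, an established human prostate cancer line that responds to androgen, and their RNA was read on single-colour whole-transcript arrays. The shControl cells carried a scrambled hairpin RNA (2 arrays) and the shRB cells a hairpin against RB1, the retinoblastoma tumour suppressor (3 arrays). Both were made with retrovirus and selected with puromycin, both received 10 Gy of ionizing radiation, and RNA was taken 24 h later. Unirradiated cells were not analysed here, so every value is a level after irradiation. The labels name no hairpin sequence and leave unstated if a group's arrays were separate cultures, so the p-values cover the spread between arrays, and that spread may be technical.

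ATR is a kinase that is recruited, through its partner ATRIP, to single-stranded DNA at stalled forks and resected breaks. RAD17 loads a ring-shaped clamp beside it, TOPBP1 switches the kinase on, and CLSPN brings CHEK1 to it for phosphorylation, after which CHEK1 holds back the cell cycle. At double-strand breaks the sister kinase ATM acts first, MDC1 binds the modified histone that marks the break and gathers further factors, and CHEK2 is the effector kinase. DCLRE1A and DCLRE1B are nucleases of the SNM1 family, which trim crosslinked DNA and telomere ends. RB1 holds E2F transcription factors in check, and several checkpoint genes are known E2F targets.

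Among the 10 genes, ATR, MDC1, DCLRE1A and DCLRE1B had the widest separation between shRB and shControl arrays, with shRB levels 1.38-fold to 1.45-fold those of shControl on the deposited scale. ATRIP and CHEK1 were slightly higher in every shRB array, and CHEK2, TOPBP1, CLSPN and RAD17 had overlapping arrays. No member passed limma's test adjusted over all genes, and 4 had an unadjusted p under 0.05, all 4 higher in shRB. Differences were positive in 7 members, against 53.8% of all genes. Of all genes, 1.07% passed and 10.9% had an unadjusted p under 0.05 and were higher. The arrays of 6 members did not overlap and were higher in shRB, against 20.6% of all genes, and 0 members were lower without overlap, against 15.4%. The median difference of the members was 0.19 on the log2 scale, against 0.02 over all genes. With dim genes left out, which drops ATRIP and CLSPN, it was 0.31 against 0.03. Of the 7406 genes left, 1826 were higher and 1384 lower in shRB without overlap, beside 5 higher and 0 lower of the 8 members left. In the fit over all genes, 1056 of those 7406 were higher with an unadjusted p under 0.05. These members were chosen with results of these data known, so the counts describe them and are no test.

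**Figure D1:**
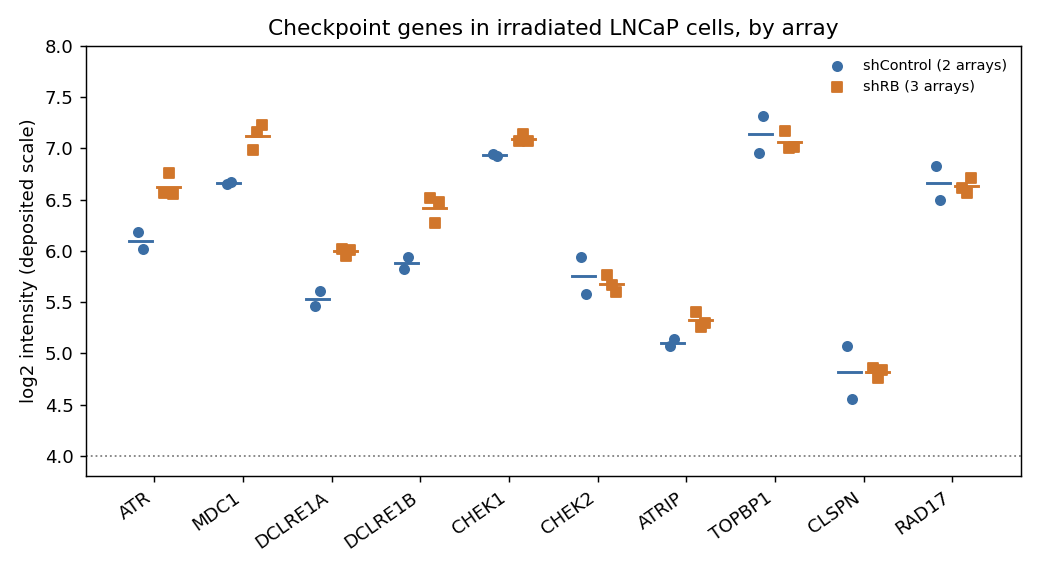
Log2 intensity on the deposited scale (vertical axis) of each checkpoint gene in the 2 shControl arrays (circles) and the 3 shRB arrays (squares), with group means as lines and a dotted line at 4, the lowest value the deposited table reaches. The groups are apart for ATR, MDC1, DCLRE1A, DCLRE1B, CHEK1 and ATRIP, and they overlap for CHEK2, TOPBP1, CLSPN and RAD17. Levels of different genes come from different probes and are not comparable.

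Since the hairpin targets the regulator of E2F, the starts of the members' genes were searched for 2 kinds of short motif that cell cycle genes often carry. The RefSeq promoter table (GRCh38.p14, 250 bases before to 50 after a transcript start, read on the gene's strand) held all 10 members, with 16 starts. The E2F letters TTTCCCGC, TTTGGCGC, TTTCGCGC and TTTGCCGC, on either strand, were found at 2 of the 16 starts (12.5%), those of CLSPN and TOPBP1, and in 3.31% of all 35116 promoters. The CHR letters TTTGAA and TTCGAA, on either strand, were found at 2 of the 16 starts (12.5%), that of MDC1 and 1 of the 3 of RAD17, and in 16.4% of all promoters. The members with E2F letters are shown beside ATR and MDC1, which differed most among the signalling proteins, from 140 bases before the start to 10 after it, 5′ to 3′. Capitals mark E2F letters in CLSPN and TOPBP1 and CHR letters in MDC1, and ATR has none of either.
CLSPN, chr1:35769969-35770118, minus strand: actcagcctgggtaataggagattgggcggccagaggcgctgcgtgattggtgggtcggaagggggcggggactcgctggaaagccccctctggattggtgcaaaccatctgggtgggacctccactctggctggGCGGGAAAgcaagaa
TOPBP1, chr3:133661932-133662081, minus strand: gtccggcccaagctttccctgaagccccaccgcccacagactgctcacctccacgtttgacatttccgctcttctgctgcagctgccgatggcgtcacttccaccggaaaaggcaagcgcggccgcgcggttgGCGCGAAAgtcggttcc
ATR, chr3:142578724-142578873, minus strand: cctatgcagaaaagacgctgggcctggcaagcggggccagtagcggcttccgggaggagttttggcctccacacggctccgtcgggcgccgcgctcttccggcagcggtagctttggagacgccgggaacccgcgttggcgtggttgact
MDC1, chr6:30717272-30717421, minus strand: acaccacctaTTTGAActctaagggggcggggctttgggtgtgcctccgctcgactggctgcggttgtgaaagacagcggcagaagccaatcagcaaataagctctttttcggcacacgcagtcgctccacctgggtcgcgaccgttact
Both E2F matches read in the reverse orientation and lie across the transcript start. A match is only a match of letters, and none in this window says nothing about binding elsewhere.

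ATR, the kinase at the head of the fork checkpoint (probe set 16959985, chromosome 3), had log2 intensities of 6.18 and 6.02 in shControl and 6.56, 6.76 and 6.56 in shRB. Every shRB array lay above both shControl arrays, and the lowest shRB array stood 0.37 above the highest shControl array. The mean of shRB was 6.63 ± 0.12 (SD, n = 3) and that of shControl 6.10 ± 0.12 (SD, n = 2), a log2 difference of 0.53 (SE 0.15, 95% interval 0.19 to 0.86). The shRB level was 1.44-fold the shControl level as deposited, and 1.58-fold after 16, an apparent added constant, was subtracted from each intensity. ATR missed the threshold of 0.05 (limma adjusted p = 0.112).

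ATRIP, which carries ATR to coated single-stranded DNA, had log2 intensities of 5.07 and 5.14 in shControl and 5.40, 5.26 and 5.30 in shRB. The groups did not overlap, but the gap between the nearest arrays was 0.12, of the size of the spread within shRB, 0.15. Its difference was 0.22 (SE 0.14, interval -0.10 to 0.53, limma adjusted p = 0.464). The ATRIP transcript unit shares its locus with TREX1 and the readthrough transcript ATRIP-TREX1, neither of which had a named probe set here, so their part in this signal was not tested.

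RAD17, the loader of the checkpoint clamp, stood at 6.83 and 6.50 in shControl and at 6.61, 6.57 and 6.71 in shRB. All 3 shRB arrays lay between the shControl arrays, and the difference of the means was -0.03 (SE 0.16, interval -0.38 to 0.31, limma adjusted p = 0.939). TOPBP1, the activator of ATR, stood at 6.96 and 7.32 in shControl and at 7.17, 7.00 and 7.01 in shRB. Here too the shControl arrays enclosed the shRB arrays, with a difference of -0.07 (SE 0.16, interval -0.43 to 0.28, adjusted p = 0.844). CLSPN, the adaptor between ATR and CHEK1, was dim, at 5.07 and 4.56 in shControl and 4.86, 4.76 and 4.84 in shRB. Its difference was 0.01 (SE 0.17, interval -0.38 to 0.39, adjusted p = 0.992), and since its values lie near the floor, a change in transcript level would be compressed. The 2 members whose promoters hold E2F letters, CLSPN and TOPBP1, are among the members whose arrays overlapped. A part of E2F in the level of any member was not tested.

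CHEK1, the kinase that ATR activates, stood at 6.95 and 6.93 in shControl and at 7.07, 7.14 and 7.08 in shRB. Its arrays were close within each group and did not overlap between groups. The difference was small, 0.16 (SE 0.14, interval -0.16 to 0.47), or 1.11-fold, and did not pass (limma adjusted p = 0.599). ACRV1, a gene of sperm that overlaps CHEK1 in the annotation and has a probe set of its own, stood at 0.37 (adjusted p = 0.268), and whether the probe sets share signal was not tested. CHEK2, the effector of the break arm, stood at 5.94 and 5.58 in shControl and at 5.77, 5.67 and 5.59 in shRB. The shRB arrays lay between the shControl arrays, with a difference of -0.08 (SE 0.16, interval -0.44 to 0.27, adjusted p = 0.829).

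MDC1, the mediator that binds marked chromatin at breaks, was represented by 8 probe sets, of which the one with the highest mean, 17031635, was used. It read 6.65 and 6.68 in the shControl arrays and 6.99, 7.16 and 7.23 in the shRB arrays (log2 intensity). The shControl arrays were 0.03 apart and every shRB array was at least 0.31 above them. The means were 7.12 ± 0.12 (SD, n = 3) and 6.66 ± 0.02 (SD, n = 2), a difference of 0.46 (SE 0.15, interval 0.14 to 0.79) or 1.38-fold (1.45-fold after subtracting 16), which did not pass (limma adjusted p = 0.145). In all 8 probe sets the shRB arrays lay above the shControl arrays, with differences from 0.31 (probe set 17041700) to 0.46. The 8 profiles were not identical, and in probe set 17016966 the shControl arrays stood further apart, at 6.27 and 6.50, with a difference of 0.32. All 8 are annotated to the same transcript, so they are not counted as independent measurements. CLSPN had 2 probe sets, with differences of 0.01 and -0.02, and its arrays overlapped in both.

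**Figure D2:**
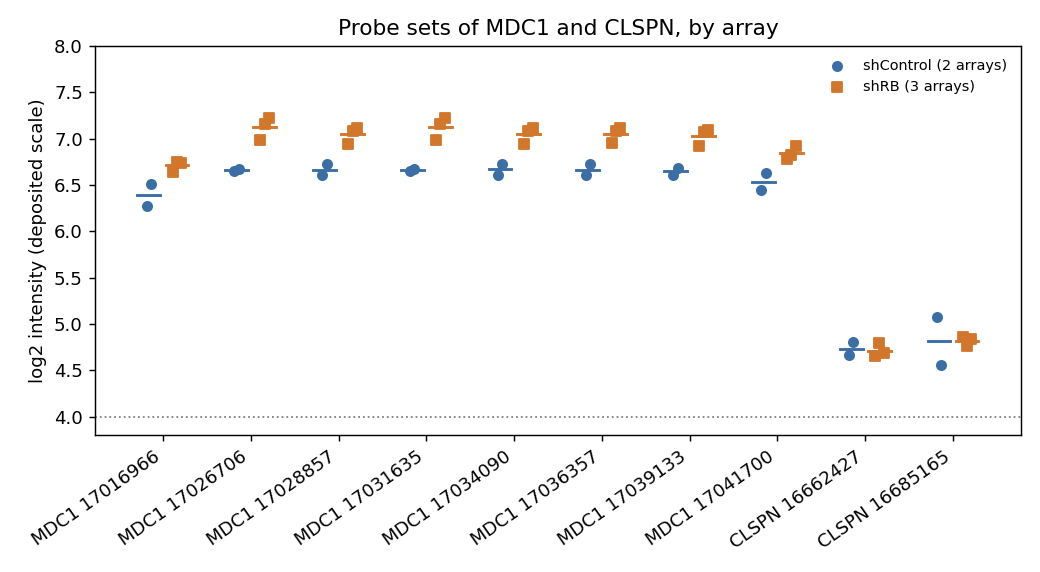
Log2 intensity on the deposited scale (vertical axis) for each of the 8 probe sets of MDC1 and the 2 of CLSPN, with the 2 shControl arrays as circles, the 3 shRB arrays as squares and group means as lines. All MDC1 probe sets show shRB above shControl without overlap, and neither CLSPN probe set separates the groups.

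DCLRE1A, also known as SNM1A, a nuclease that digests past DNA crosslinks, had log2 intensities of 5.46 and 5.61 in shControl and 6.02, 5.95 and 6.01 in shRB. The shRB arrays lay within 0.07 of each other and the nearest stood 0.35 above the higher shControl array. The means were 5.99 ± 0.04 (SD, n = 3) and 5.53 ± 0.11 (SD, n = 2), a difference of 0.46 (SE 0.14, interval 0.14 to 0.78) or 1.38-fold, which became 1.57-fold after subtracting 16 (limma adjusted p = 0.136). DCLRE1B, also known as Apollo, which trims telomere ends, had log2 intensities of 5.82 and 5.94 in shControl and 6.52, 6.27 and 6.48 in shRB. It had the largest difference of the 10 genes, with means of 6.42 ± 0.13 (SD, n = 3) and 5.88 ± 0.08 (SD, n = 2), a difference of 0.54 (SE 0.15, interval 0.21 to 0.87) or 1.45-fold, which became 1.63-fold after subtracting 16. It did not pass either (limma adjusted p = 0.107). AP4B1, which overlaps DCLRE1B, TAF9 and AK6, which overlap RAD17, and the antisense transcripts MDC1-AS1 and CLSPN-AS1 had no named probe set here.

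**Figure D3:**
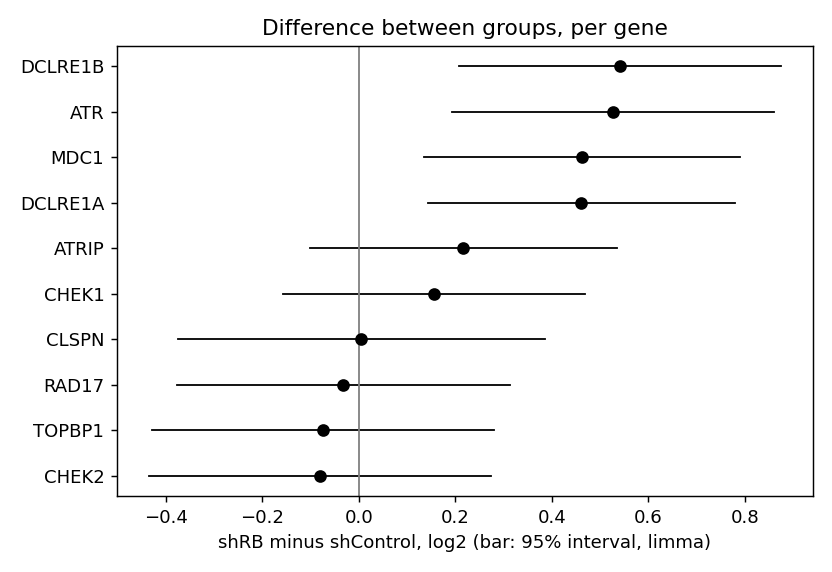
Difference between shRB and shControl on the log2 scale (horizontal axis) for each checkpoint gene, with 95% intervals from limma. The unadjusted intervals of ATR, MDC1, DCLRE1A and DCLRE1B lie above 0 and those of the other members include 0.

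The arrays of a group differed unequally among the members. The 2 shControl arrays differed by 0.52 for CLSPN, 0.37 for CHEK2, 0.36 for TOPBP1 and 0.33 for RAD17, and by 0.02 for CHEK1 and 0.03 for MDC1. The sign for CHEK2, TOPBP1, CLSPN and RAD17 followed the shControl array that was kept. Without shControl replicate 1 the differences were 0.10 for CHEK2, -0.25 for TOPBP1, 0.26 for CLSPN and 0.13 for RAD17. Without shControl replicate 2 they were -0.27, 0.10, -0.25 and -0.20. RAD17 also stood at 5e-04 without shRB replicate 2, and CLSPN at -0.013 and -0.0051 without shRB replicates 1 and 3. ATR kept a positive difference of 0.44 to 0.61 in the 5 fits without an array, MDC1 0.41 to 0.53, DCLRE1A 0.39 to 0.54 and DCLRE1B 0.48 to 0.62. None of these passed without an shRB array, with limma adjusted p-values of at least 0.228. The fits without an shControl array leave 1 in that group, so their p-values hold no spread of shControl and are not given.

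**Figure D4:**
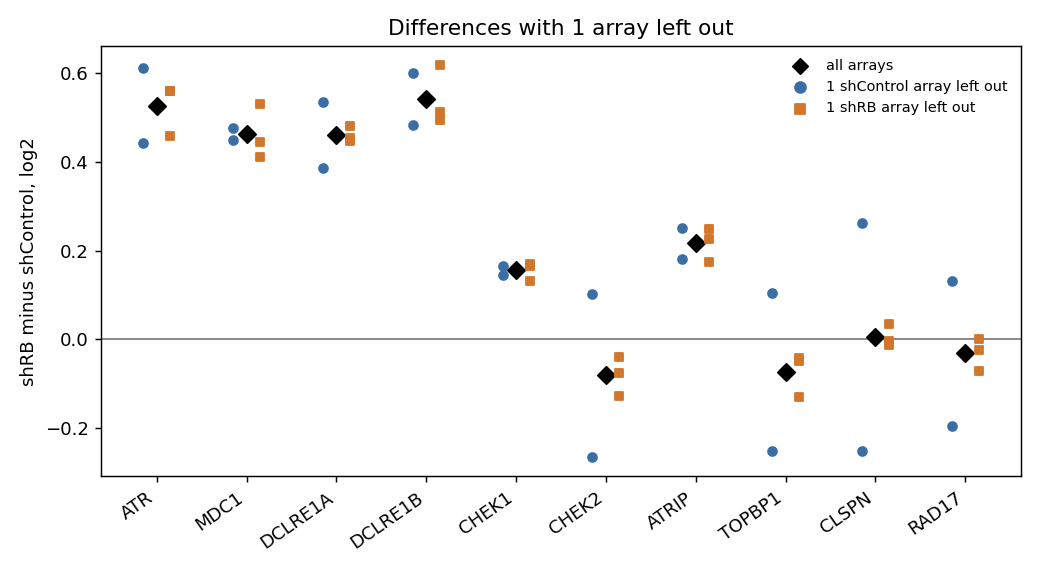
Difference between shRB and shControl on the log2 scale (vertical axis) for each checkpoint gene, with all arrays (diamonds), with 1 shControl array left out (circles) and with 1 shRB array left out (squares). CHEK2, TOPBP1, CLSPN and RAD17 change sign between the fits without shControl replicate 1 and without shControl replicate 2, and ATR, MDC1, DCLRE1A, DCLRE1B, CHEK1 and ATRIP stay above 0.

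The members' neighbours in the pathway were taken from 5 lists, which held 44 measured genes of 69 listed. Of these 1 passed and rose, PLK3, and 0 passed and fell, against 0.695% and 0.378% of all genes. That balance over all genes turned when an shRB array was left out, with 12 higher and 16 lower without shRB replicate 1, 9 and 13 without shRB replicate 2 and 8 and 14 without shRB replicate 3. The difference was positive in 27 and negative in 17, and its median was 0.08. Of 10 listed genes of the clamp that RAD17 loads and of its loader, 6 were measured, none of them a loader subunit, 0 passed and the median was 0.09. The clamp subunits HUS1 (log2 difference 0.40, SE 0.15, limma adjusted p = 0.204) and RAD1 (0.18, adjusted p = 0.546) had non-overlapping arrays, higher in shRB, while RAD9B (0.12) and RAD9A (-0.12) overlapped. Of 12 listed factors that activate ATR or steady the fork, 6 were measured, 0 passed and the median was 0.11. WDHD1, which couples helicase and polymerase, stood at 0.39 (adjusted p = 0.249), the fork protection gene DONSON at 0.34 (adjusted p = 0.276) and TIPIN, which works with CLSPN, at 0.28 (adjusted p = 0.336). ETAA1, the second activator of ATR, stood at -0.12 (adjusted p = 0.698).

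Break signalling around MDC1 had 12 measured genes of 18 listed, of which 0 passed, 8 were positive and 4 negative (median 0.09). MRE11, the nuclease of the break sensor complex, had log2 intensities of 5.96 and 6.07 in shControl and 6.48, 6.74 and 6.52 in shRB, a difference of 0.56 (SE 0.15, limma adjusted p = 0.0999). NBN, its partner and a ligand of MDC1, stood the other way at -0.38 (SE 0.15, adjusted p = 0.213), with all shRB arrays below shControl. The ubiquitin protease USP28 stood at 0.39 (adjusted p = 0.232) and the adaptor PAXIP1 at 0.41 (adjusted p = 0.267). MRE11 and NBN, which belong to the same complex, thus differed in sign, and neither difference passed.

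Among the effectors downstream of CHEK1 and CHEK2 and the genes of checkpoint recovery, 13 of 18 were measured, 6 were positive and 7 negative (median -0.03). PLK3, a stress kinase that is also a p53 target, rose from 4.45 and 4.73 in shControl to 5.30, 5.45 and 5.52 in shRB, a difference of 0.84 (SE 0.16, limma adjusted p = 0.0336) or 1.79-fold. It lay near the floor in shControl, and the ratio became 3.32-fold after subtracting 16, so its size depends on that constant. It no longer passed when any single shRB array was left out, after subtracting 16 and adding 4, with array weights or with the replicate block. FBXO6, which targets CHEK1 for degradation, stood at -0.32 (adjusted p = 0.28), cyclin B1, CCNB1, at -0.23 (adjusted p = 0.464) and the mitotic kinase PLK1 at -0.24 (adjusted p = 0.483). Of 11 relatives and partners of the SNM1 nucleases, 7 were measured and 0 passed, with 5 positive differences and a median of 0.09. The telomere end proteins POT1 (0.42, adjusted p = 0.197) and ACD (0.41, adjusted p = 0.286) had the smallest p-values, followed by CDC16 (0.17, adjusted p = 0.567) and the telomere repeat binding protein TERF1 (-0.17, adjusted p = 0.584).

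**Figure D5:**
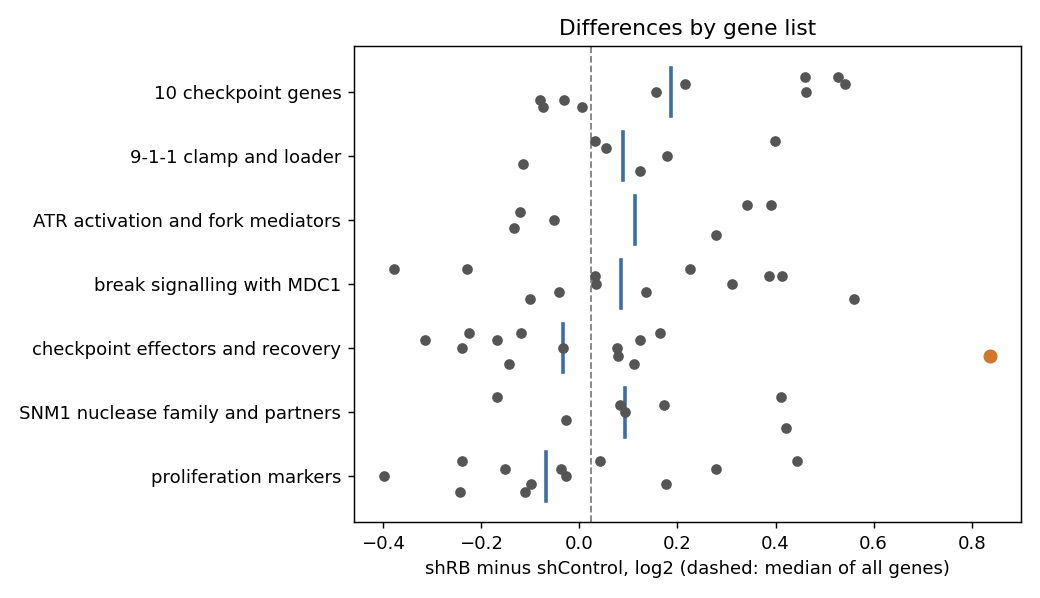
Difference between shRB and shControl on the log2 scale (horizontal axis) for each measured gene of the 10 checkpoint genes and of 6 lists. Vertical bars are list medians, the dashed line is the median of all genes (0.02), and the large coloured point is PLK3, the gene that passed.

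Several checkpoint genes vary over the cell cycle, so 12 proliferation markers were read beside them. All 12 were measured and 0 passed, with 4 positive and 8 negative differences and a median of -0.07. Their summed linear intensity was 1854 and 1714 in shControl and 1858, 1737 and 1796 in shRB, so the groups overlapped. MCM4 and MCM6, subunits of the replicative helicase, stood at 0.44 (limma adjusted p = 0.152) and 0.28 (adjusted p = 0.334), and cyclin A2, CCNA2, and topoisomerase TOP2A at -0.40 (adjusted p = 0.218) and -0.24 (adjusted p = 0.416). Of the 12 markers, 3 were higher and 3 lower in shRB without overlap, against 20.6% and 15.4% of all genes. The sum does not show the direction of single markers. For the 10 checkpoint genes, chosen with results known, the same sum was 764 and 755 in shControl and 880, 871 and 883 in shRB. A part of cell cycle state in the members' levels was not tested.

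Among 7405 other genes at or above the median intensity, the profiles nearest to ATR over the 5 arrays, by Euclidean distance between log2 values centred on each gene's mean, were those of HSD17B7P2 (distance 0.05), JAK2 (0.07) and DQX1 (0.09). Nearest to MDC1 were ZNF415 (0.05), TPM1 (0.06) and ARRDC1 (0.06). Between members, the nearest pairs were CLSPN and RAD17 (0.16), DCLRE1A and DCLRE1B (0.17) and CHEK1 and ATRIP (0.18). ATR and ATRIP stood 0.46 apart and ATR and TOPBP1 0.80. CLSPN and RAD17 were both lower in shControl replicate 2 than in replicate 1 (log2 -0.52 and -0.33) and differed little between groups. The values were not scaled, so genes that vary little over the arrays also stand close. Shared regulation of any pair was not tested.

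For the series as a whole, the array medians ranged from 26.6 to 28.1 on the linear scale. The highest values were less even, at 9785 and 10038 in shControl and 9856, 5850 and 4933 in shRB. Values at the floor made up 4.56% and 2.73% of the shControl arrays and 2.69%, 1.98% and 2.02% of the shRB arrays. Over all genes, log2 values correlated at r = 0.967 between the shControl arrays and at r = 0.983 to 0.986 between the shRB arrays. Pairs from different groups correlated at r = 0.955 to 0.970, so the shControl arrays were no more alike than some pairs across groups. RB1 stood at 5.81 and 5.70 in shControl and 5.16, 5.28 and 5.20 in shRB, a difference of -0.54 (SE 0.14) that did not pass (limma adjusted p = 0.0967). Luminal prostate markers were present, with KLK3 at 10.06 to 10.17 and FOLH1 at 9.48 to 9.75 on the log2 scale. The 6 measured luminal markers of 11 listed summed to 3206 and 2951 in shControl and 2966 to 3060 in shRB. Of the markers of other cell types, the measured stromal genes DCN and LUM and the leukocyte gene CD14 lay between 4.15 and 4.64, near the floor. Of the 3 measured basal, 2 stromal, 1 leukocyte and 2 endothelial markers, 0 passed (limma). The endothelial VWF, at 6.12 and 6.41 in shControl and 5.94, 5.76 and 5.13 in shRB, and the basal KRT15, at 5.23 and 5.13 against 4.87, 4.86 and 4.61, had unadjusted p-values under 0.05. The other measured basal markers, KRT5 and KRT14, stood the other way, with log2 differences of 0.19 and 0.05. The endothelial KDR stood at -0.09, and all 3 had overlapping arrays.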

How the data were processed

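The authors deposited 1 intensity per probe set and array on a linear scale, per the value table. How probes were summarised, background-corrected and normalized, and with which software, is not given in the sources used here, nor is the build. No value lay below 16, as would follow from an added constant, which compresses differences of dim genes. Probe sets with 1 gene symbol (15835 of 44607) were named from the platform annotation, with symbols updated through Entrez identifiers and RefSeq GRCh38.p14, where all matched. Of several probe sets for a gene, the one with the highest mean log2 intensity was used. This left 14812 genes, with no filter on dim genes. Log2 intensities of shRB and shControl entered limma (version 3.58.1, R 4.3.3) through lmFit and eBayes without covariates. Its two-sided p-values were adjusted by Benjamini-Hochberg over all genes, with a threshold of 0.05. The test was tried on simulated data, in which 200 of 14812 genes were given a difference in each trial. Noise was normal, independent and of equal variance in both groups, so the shares that follow hold for that setting. There, 23.5% of genes given a true log2 difference of 0.5 passed, and 97.6% of those given 1. A mean of 9.15 genes given no difference passed too. For differences near 0.5, such as those of ATR, MDC1, DCLRE1A and DCLRE1B, a failure to pass therefore does not show that a difference is absent. The number of arrays limits the precision.

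Named were all 10 members, RB1, the genes of each pathway list that passed and up to 4 with the smallest p, the 3 nearest profiles to ATR and to MDC1, and cell type markers. ACRV1 was added because it overlaps CHEK1. RAD50 was added to the closing section after its values were seen. The members and lists were chosen with earlier results of these data known. Promoter sequences come from RefSeq. The alternatives were other normalizations, filters, probe set rules and variance models, the replicate number as a block, removal of the constant and leaving out each array.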

Additional observations from a re-analysis of the deposited data

How the results depend on the processing

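No member passed limma's test under any of the 14 alternatives in which it was tested (ATRIP and CLSPN are dim and were not tested where dim genes were left out). Leaving out dim genes, testing all probe sets and the trend with robust variances alter p-values and not a member's difference. Averaging probe sets alters the difference only for MDC1 and CLSPN. The sign could therefore not change in part of the 138 values for single members. It was kept in 126 and reversed in 12, all in CHEK2, TOPBP1, CLSPN and RAD17. For CLSPN these were -0.013 after quantile normalization, -0.0092 with array medians subtracted, -0.0096 with probe sets averaged, -0.0029 with array weights and -0.0051 with the replicate block. Without an array, CLSPN ranged from -0.25 to 0.26, CHEK2 from -0.27 to 0.10, TOPBP1 from -0.25 to 0.10 and RAD17 from -0.20 to 0.13. ATR ranged from 0.44 to 0.62 over all alternatives (adjusted p 0.0594 to 0.318), DCLRE1B from 0.48 to 0.65 (0.0564 to 0.341), MDC1 from 0.39 to 0.53 (0.0833 to 0.411) and DCLRE1A from 0.39 to 0.59 (0.0767 to 0.372), each with its smallest p where dim genes were left out, which tests 7406 genes.

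The count over all genes, 159 (103 higher and 56 lower), became 385 with dim genes left out, 340 over all probe sets and 426 with an intensity trend and robust variances. It became 88 with array weights and 13 (4 higher and 9 lower) with 16 subtracted and 4 added. Without an array it ranged from 22 to 411. Members without overlap ranged from 6 to 10 without an array, with 10 when either shControl array was left out. The shRB arrays of CHEK2, TOPBP1, CLSPN and RAD17 lay between the shControl arrays, so they did not overlap with either one alone. The share of all genes without overlap was not counted in those fits. PLK3, the pathway gene that passed, was replaced by MRE11 (adjusted p = 0.0499) with dim genes left out, since PLK3 is then not tested. The count of pathway genes was 0 with array weights, with the replicate block, with 16 subtracted and 4 added, and without any single shRB array. Where no other reason is given, the cause was not tested.

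The replicate block called 24 genes (8 higher and 16 lower) and no member. As shRB replicate 3 has no shControl array of its number, the differences in this fit come from replicates 1 and 2 alone. ATR stood at 0.56 in it, as it did without shRB replicate 3. Deviations of equally numbered arrays from their group means correlated at -0.021 and 0.046 over all genes. With 2 shControl arrays the deviations of one mirror those of the other. These values therefore cannot show if equally numbered arrays share a culture or batch, and the labels give only a number.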

Other observations

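RAD50, the third subunit of the break sensor complex beside MRE11 and NBN, had log2 intensities of 7.36 and 7.28 in shControl and 7.58, 7.68 and 7.64 in shRB. Its arrays did not overlap, as those of MRE11 did not, and both were higher in shRB, while NBN was lower. The difference of RAD50 was 0.31 (SE 0.14, limma adjusted p = 0.279) and did not pass.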
